A study of Homo sapiens with 2 samples.

Results

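Host long non-coding RNAs carry the sequence of smaller RNAs inside their own transcripts. They were taken as every gene that a probe set names alone and whose symbol is SNHG and a number, MIR and a name ending in HG, or GAS5. This gave 22 of the 22465 genes on the array that have such a probe set, 4 hosts of small nucleolar RNAs (snoRNAs) and 18 hosts of microRNAs. Of the 22, 20 were matched by the symbol of the array annotation and 2, MIR570HG and MIR124-2HG, only after that symbol was updated. GAS5 has no probe set of its own, because its probe set also names snoRNAs, so it is described with the other shared probe sets below.

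The RNA came from MDA-MB-231, a widely used human breast cancer line that lacks the estrogen, progesterone and HER2 receptors and has mesenchymal traits. The control array (genotype control) came from cells stably transfected with the pLKO.1 vector, though its title ends in shNC and the labels do not say whether that vector was empty or held a control hairpin, and the second array (genotype SREBP1 KD) from cells stably transfected with a pLKO.1 vector that encodes a short hairpin RNA against SREBP1. Both derivatives were grown in high-glucose DMEM with serum and antibiotics, and the labels do not state whether either is 1 clone or a pool. Each group had 1 array, so there is no test and no p-value. Each difference is the log2 signal of the array labelled SREBP1 KD minus that of the control array, and where a sentence gives a pair of signals the control comes first.

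SREBF1 is the gene of SREBP1, a transcription factor of lipogenic genes. Its own signal was 5.13 in the control and 5.29 where the label says knockdown, 0.15 log2 units higher, so the targeted RNA was not lower where the label says it should be. All directions below therefore rest on the label alone. SREBF1 is itself a host, of miR-33b in an intron, and the MIR33B probe set read 6.09 and 6.14. SREBF2, the paralogue that drives cholesterol synthesis and hosts miR-33a, read 5.98 and 6.08, while MIR33A read 1.76 and 1.90, below the expression floor.

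A gene was kept as expressed when the higher of its signals was above a floor of 3.21 log2 units, set at the 95th percentile of 364 olfactory receptor genes by mean signal, a class this line should not express. Of all genes, 15702 were above the floor, and 27 of the 364 olfactory receptor genes were too. Over those 15702 genes the SD of the difference was 0.19 log2 units and its median 0.012. All 8 markers of the line were above the floor, with a summed linear signal of 4049 and 4667, and VIM read 9.46 and 9.74. Among markers of other cells, 7 of 9 measured luminal, 6 of 9 leukocyte and 7 of 11 fibroblast and endothelial genes were above the floor. Their summed linear signals were 1047 and 1057, 490.1 and 548.8, and 139.9 and 136.0. The luminal ESR1 and PGR and the leukocyte PTPRC were below the floor on both arrays. The luminal KRT18 read 8.65 and 8.93 and the leukocyte CD68 read 8.64 and 8.85, far above it. The part of these markers in the host differences was not tested.

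Most human snoRNAs are cut from introns after splicing and guide chemical modification of ribosomal RNA, box C/D snoRNAs for methylation and box H/ACA snoRNAs for pseudouridylation. Their non-coding hosts keep little or no protein-coding capacity in the exons, many are degraded by nonsense-mediated decay, and many begin with the pyrimidine tract that marks mRNAs of the translation machinery. MicroRNA hosts are the long primary transcripts from which Drosha cuts a hairpin and Dicer then a mature microRNA, which pairs with target mRNAs through its seed, bases 2 to 8.

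The RefSeq gene table (GRCh38.p14) places 30 microRNA genes inside 17 of the 18 microRNA hosts, and 28 of those genes have sequences in the RefSeq microRNA table. The sequences below are shown because they belong to seed families that different hosts share. Another shared seed, UCACUGA of miR-181b-3p (MIR181A1HG) and miR-181b-2-3p (MIR181A2HG), is not shown in sequence. Seeds are in capitals. Both miR-181 hosts carry the seed ACAUUCA. MIR100HG and MIR99AHG, on chromosomes 11 and 21, carry parallel clusters of a miR-100 or miR-99a, a let-7 and a miR-125b gene, and MIR4500HG carries a microRNA with the let-7 seed GAGGUAG. The strand is that of the RefSeq gene.
hsa-miR-181a-5p (MIR181A1HG, chr1:198859108-198859130, minus strand): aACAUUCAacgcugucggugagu
hsa-miR-181b-5p (MIR181A1HG, chr1:198858925-198858947, minus strand): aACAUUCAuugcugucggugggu
hsa-miR-100-5p (MIR100HG, chr11:122152275-122152296, minus strand): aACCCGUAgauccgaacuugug
hsa-miR-99a-5p (MIR99AHG, chr21:16539101-16539122, plus strand): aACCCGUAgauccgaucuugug
hsa-let-7a-5p (MIR100HG, chr11:122146568-122146589, minus strand): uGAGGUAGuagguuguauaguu
hsa-let-7c-5p (MIR99AHG, chr21:16539838-16539859, plus strand): uGAGGUAGuagguuguaugguu
hsa-miR-4500 (MIR4500HG, chr13:87618671-87618687, minus strand): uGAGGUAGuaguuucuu
hsa-miR-125b-5p (MIR100HG, chr11:122099809-122099830, minus strand): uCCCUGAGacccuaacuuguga

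The mature miR-181a-5p and miR-181b-5p listed by RefSeq for MIR181A2HG, on chromosome 9, and the miR-125b-5p listed for MIR99AHG have the same letters as those shown. A further set is shown because its microRNAs have well-described roles. miR-210 is a microRNA induced by low oxygen, miR-31 is known as a suppressor of metastasis, and miR-9 is known to act on the E-cadherin mRNA.
hsa-miR-210-3p (MIR210HG, chr11:568112-568133, minus strand): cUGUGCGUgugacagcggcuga
hsa-miR-31-5p (MIR31HG, chr9:21512158-21512178, minus strand): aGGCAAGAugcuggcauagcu
hsa-miR-9-5p (MIR9-1HG, chr1:156420392-156420414, minus strand): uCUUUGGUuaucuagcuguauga
hsa-miR-7-5p (MIR7-3HG, chr19:4770700-4770723, plus strand): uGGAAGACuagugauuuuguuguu

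All 4 snoRNA hosts with a probe set of their own were above the floor, 3 of them higher and 1 lower on the array labelled knockdown. SNHG8, host of the box H/ACA snoRNA SNORA24, had a signal of 6.54 in the control and 7.15 in the other group. The array labelled knockdown was the higher, by 0.61 log2 units or 1.52-fold. That difference ranked 49th from the highest of 15702 genes and 6th of the 839 long non-coding RNAs above the floor. SNHG17, host of SNORA71A to SNORA71D, read 6.67 and 7.04. It was 0.37 log2 units or 1.30-fold higher, which ranked 376th of all genes and 29th of the long non-coding RNAs. SNHG33, which spans SNORA63D and SNORA63E, read 5.61 and 5.69, a difference of 0.078 log2 units that is smaller than the SD over all genes.

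SNHG21 went the other way. This host of the Cajal body RNA SCARNA15 read 3.39 in the control and 3.07 in the other group. The control signal was just above the floor and the other below it, so the difference of -0.32 log2 units is read against a signal not above background. With the lower value set to the floor it was -0.18, which is under 1.2-fold.

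**Figure D1:**
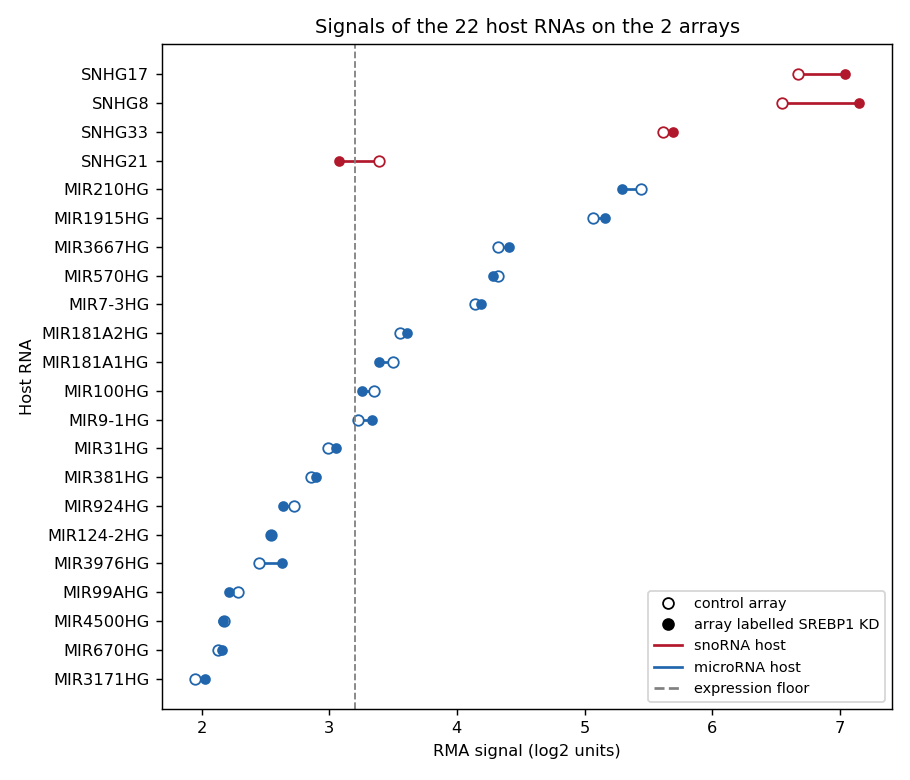
RMA signal in log2 units (x axis) of the 22 host RNAs with a probe set of their own (y axis), open circles for the control array and filled circles for the array labelled SREBP1 KD, 1 array each. Red marks snoRNA hosts, blue microRNA hosts, and the dashed line the expression floor of 3.21. SNHG8 and SNHG17 show the widest steps to the right, SNHG21 crosses the floor, and 9 microRNA hosts lie below it.

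The first bases of the 4 snoRNA hosts are shown because a pyrimidine tract at the start is a known mark of this gene class. Each stretch holds 60 bases, 30 before and 30 from the first RefSeq start (GRCh38.p14), read on the strand of the gene. Capitals mark a C followed by at least 4 pyrimidines where this run begins within 10 bases of the start.
SNHG8 (chr4:118278732-118278791, plus strand): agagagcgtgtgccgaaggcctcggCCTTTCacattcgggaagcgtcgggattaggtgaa
SNHG17 (chr20:38435299-38435358, minus strand): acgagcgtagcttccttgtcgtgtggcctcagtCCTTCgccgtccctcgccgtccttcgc
SNHG33 (chr3:183447578-183447637, plus strand): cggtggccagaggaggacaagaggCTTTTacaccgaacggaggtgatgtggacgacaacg
SNHG21 (chr15:82750534-82750593, plus strand): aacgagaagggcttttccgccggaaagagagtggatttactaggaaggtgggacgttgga

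SNHG8, SNHG17 and SNHG33 each had such a run near the start, and in SNHG21 none began within 10 bases of it. Runs of this kind are common, since 33.3% of 27305 promoters, 1 per gene, held one. Among all snoRNA hosts of the promoter table, members or not, 16 of 26 held one (61.5%), against 28 of 69 microRNA hosts (40.6%). Of the 17 promoters available for the 22 hosts, 7 did. With such a C and its 4 pyrimidines required at the listed start itself, the counts were 6 of 26 snoRNA hosts, 4 of 69 microRNA hosts, 0 of 17 members and 4.04% of all promoters. The letters CACGTG, an E-box that SREBP proteins can bind, stood in 7.43% of all promoters and in 0 of the 17, and TCACNCCAC, a form of the sterol regulatory element, in 1.15% and 0 of 17, both strands searched over 300 bases. A match describes letters only, and its absence says nothing about binding.

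Of the 18 microRNA hosts, 9 were above the floor, and all 9 differed by less than the SD over all genes. MIR9-1HG, host of miR-9, read 3.23 and 3.33, and was the highest of the 9 by difference, at 0.10 log2 units. MIR3667HG read 4.32 and 4.41, a difference of 0.087. MIR1915HG read 5.07 and 5.16, also 0.087. These 3 hosts were each slightly higher on the array labelled knockdown.

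MIR210HG, whose microRNA is a marker of low oxygen, had the lowest difference of the 9. It read 5.44 in the control and 5.29 in the other group, 0.15 log2 units or 1.11-fold lower, and ranked 2447th from the lowest of all genes. MIR181A1HG read 3.50 and 3.39, a difference of -0.11, whereas MIR181A2HG, which carries the same seed, read 3.56 and 3.61, a difference of 0.050. The miR-181 hosts thus had differences of opposite sign, both smaller than 0.19. MIR100HG, host of miR-100, let-7a-2 and miR-125b-1, read 3.35 and 3.26, a difference of -0.095.

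MIR570HG read 4.32 and 4.28, a difference of -0.041, and MIR7-3HG, host of a miR-7 gene, read 4.15 and 4.19, a difference of 0.040. The other 9 microRNA hosts were below the floor on both arrays, with signals from 1.95 to 3.06. They were MIR31HG, MIR99AHG, MIR124-2HG, MIR381HG, MIR670HG, MIR924HG, MIR3171HG, MIR3976HG and MIR4500HG. MIR31HG read 2.99 and 3.06, MIR99AHG read 2.28 and 2.22, and MIR124-2HG read 2.54 on both. Of these 9, 5 were higher, 3 lower and 1 equal, with MIR3976HG farthest from 0 at 2.45 and 2.63.

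Together, 13 of the 22 hosts were above the floor, 8 higher and 5 lower on the array labelled knockdown. Of all 15702 genes above the floor, 52.2% were higher and 41.2% lower. At least 1.2-fold apart were 2 hosts in the higher direction, SNHG8 and SNHG17, and 1 in the lower, SNHG21. The lower call is lost when values under the floor are set to it, which leaves 2. Over all genes 13.2% were that far apart in either direction, 6.6% higher and 6.56% lower, and among long non-coding RNAs 12.4%, 7.63% and 4.77%. At 1.5-fold only SNHG8 was left, against 0.382% of all genes and 0.715% of long non-coding RNAs in the higher direction.

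The median difference was 0.23 log2 units over the 4 snoRNA hosts and 0.040 over the 9 microRNA hosts above the floor, and the first exceeded the second by 0.19. The snoRNA hosts ranged from -0.32 to 0.61, with an SD of 0.40 between genes, and the microRNA hosts from -0.15 to 0.10, with an SD of 0.096. All 9 microRNA hosts thus lay inside the range of the 4 snoRNA hosts. Over all 839 long non-coding RNAs the median was 0. The classes also differed in how many members were measurable, 4 of 4 snoRNA hosts and 9 of 18 microRNA hosts being above the floor. The median signal of these snoRNA hosts was 6.08 in the control and 6.37 in the other group. For these microRNA hosts it was 4.15 and 4.19. MIR9-1HG, MIR100HG, MIR181A1HG and MIR181A2HG read from 3.23 to 3.61, close to the floor, as SNHG21 did at 3.39 and 3.07. The part of signal level in the smaller spread of the microRNA hosts was not tested. With 4 genes and 1 array per group, the difference between the classes is a description of these arrays.

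Most snoRNA hosts sit on the array in probe sets that also name other genes, so their signal cannot be assigned to the host alone. Such sets name 35 hosts, 34 of them without a probe set of their own, and 28 of the 35 share it with small RNAs only. Among the 14 snoRNA hosts of this kind, all above the floor, 11 were higher, 1 lower and 2 equal, with a median of 0.21 log2 units. At least 1.2-fold higher were 6 of 14 (42.9%), and 0 were that much lower. The comparison of these shares with the background of 6.6% is a description, since the probe sets mix hosts and snoRNAs.

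The set of SNHG1, named with 8 box C/D snoRNAs, read 6.81 and 7.35 and was 1.46-fold higher on the array labelled knockdown. The set of SNHG6, named with SNORD87, read 3.54 and 3.88, and that of SNHG16, named with SNORD1C, read 7.42 and 7.75. The set of SNHG15 read 5.19 and 5.49, and that of SNHG7 read 5.84 and 6.13. All 5 were higher on the array labelled knockdown. GAS5, a host known to accumulate when growth stops and translation is low, shares its set with 8 box C/D snoRNAs, and this set read 6.49 and 6.77, a 1.21-fold difference.

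The remaining sets of this kind were closer to 0. SNHG32 has 5 such probe sets, with differences from 0.25 to 0.26. The brightest, which is the one counted, was 1.197-fold higher and another was 1.2005-fold higher, so SNHG32 lies at the 1.2-fold threshold. The set of SNHG5 read 5.67 and 5.82. SNHG10, SNHG29 and SNHG12 differed by 0.085, 0.082 and 0.048 log2 units. SNHG11 and SNHG14 had equal values on both arrays, at 3.99 and 4.07, while another SNHG14 set differed by 0.049. Equal values were also found in 1041 of the 15702 genes above the floor. The set of SNHG9 was lower, at 4.83 and 4.78. In a further 4 snoRNA hosts the set also names another gene, and all 4 were higher. The largest of these, SNHG3 with RCC1, read 6.48 and 6.73.

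MicroRNA hosts on sets shared with small RNAs were split evenly between the arrays. Of 14, 8 were above the floor, 3 higher, 3 lower and 2 equal, with a median of 0. MIR155HG, host of the inflammation-linked miR-155, read 3.50 and 3.73, the largest difference of these 8 at 0.23. MIR17HG, host of the miR-17 to miR-92 cluster, read 2.92 and 3.20, below the floor on both. MIR22HG read 5.59 and 5.58, and MIR23AHG read 4.92 and 4.86. A further 2 microRNA hosts above the floor share a set with another gene, MIR4435-2HG at 7.67 and 7.74 and MIR570HG at 7.39 and 7.30, the second a set apart from its own.

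**Figure D2:**
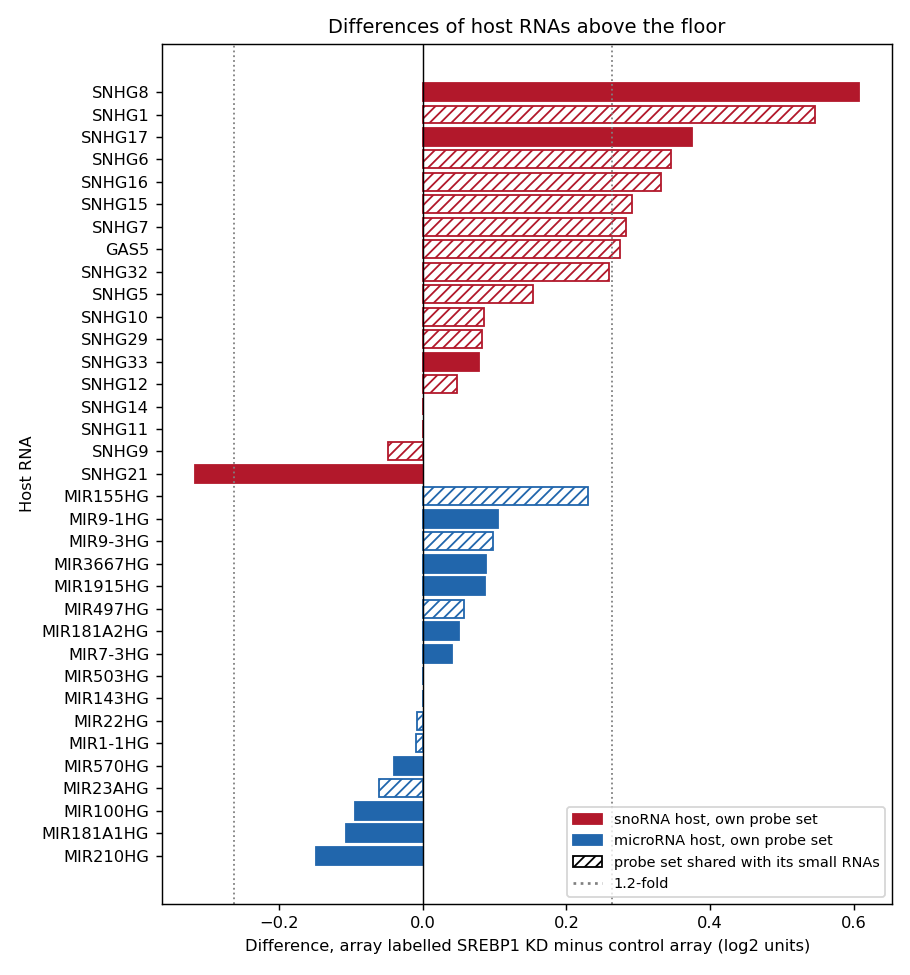
Difference between the arrays in log2 units (x axis, array labelled SREBP1 KD minus control) for host RNAs above the floor (y axis). Sets that also name a gene other than a small RNA are not shown. Solid bars are hosts with a probe set of their own, hatched bars sets shared with small RNAs, red snoRNA hosts and blue microRNA hosts; dotted lines mark 1.2-fold. SNHG8 at 0.61 and the SNHG1 set at 0.55 are the longest bars, and SNHG21 at -0.32 the lowest.

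Small RNAs with a probe set of their own allowed the host to be read beside its product. The labelling amplifies total RNA with random priming, so such a probe set may also read the intron or the host transcript, and this was not tested. RefSeq places 10 snoRNA or scaRNA genes inside the 4 snoRNA hosts, of which 6 have a probe set of their own and 5, in 2 hosts, were above the floor. Their median was 0.11, with 3 higher and 2 lower. SNORA24, inside SNHG8, read 8.82 and 9.09 and was 0.27 log2 units higher, in the same direction as its host.

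In SNHG17 the snoRNAs were split. SNORA71D read 8.23 and 8.36 and SNORA71C read 9.82 and 9.93, both higher on the array labelled knockdown as the host was. SNORA71A read 10.05 and 9.97 and SNORA71B read 6.97 and 6.81, both lower. The host difference of 0.37 was larger than that of each of the 4. These snoRNAs share a family name, and their sequences were not compared. Probes may read more than 1 of them, which was not tested. SCARNA15, inside SNHG21, was below the floor, at 2.06 and 2.19.

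The microRNA hosts hold 32 small RNA genes, of which 25 have their own probe set and 6 above the floor, 1 in each of 6 hosts. Their median was -0.074, with 2 higher and 4 lower. MIR210 read 6.096 and 5.995, a difference of -0.10 beside -0.15 for its host. MIR181B1 read 3.95 and 3.82, a difference of -0.13 beside -0.11, and MIRLET7A2 read 3.77 and 3.72, a difference of -0.047 beside -0.095. In these 3 pairs host and microRNA gene were both lower. MIR7-3 read 3.55 and 3.68 and was higher, as its host was, whereas MIR1915 read 6.73 and 6.62 and was lower where its host was higher.

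MIR124-2 stood apart from its host, at 3.21 and 3.71, 1.41-fold higher, while MIR124-2HG was below the floor with equal values. Its control signal lay at the floor. Hosts on shared sets held 7 more snoRNAs above the floor, 6 of them higher. SNORD75, inside GAS5, read 4.76 and 5.35, 1.51-fold higher, and SNORD78 of the same host read 8.10 and 8.21. SNORD1A, inside SNHG16, read 4.02 and 4.40. As background, over all 134 snoRNA and scaRNA genes above the floor the median was 0.025 with an SD of 0.34, and 30.6% were at least 1.2-fold apart. Over all 407 microRNA genes above the floor the median was 0.036 with an SD of 0.22, and 21.1% were that far apart, so small RNA probe sets varied more between the arrays than genes as a whole.

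**Figure D3:**
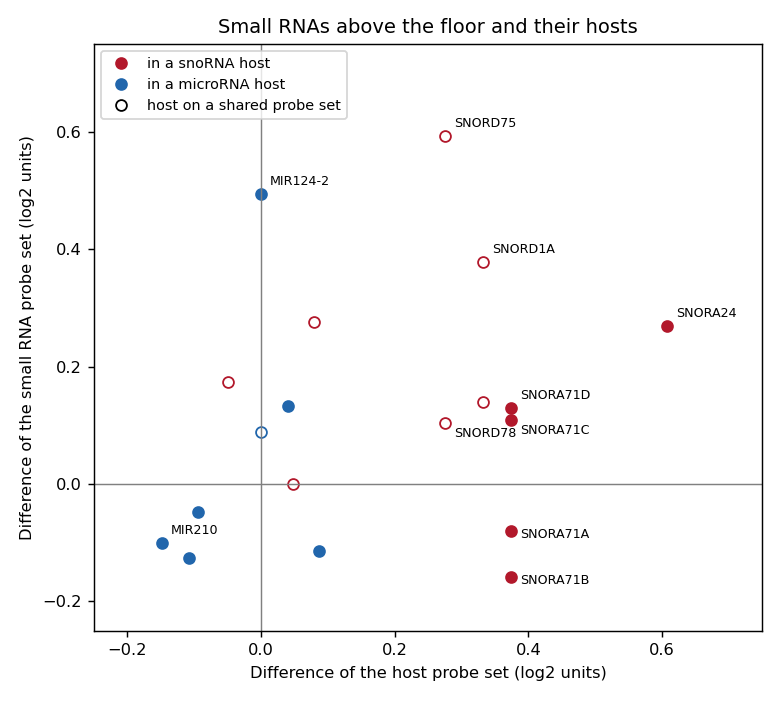
Difference of the host probe set (x axis) and of the small RNA probe set (y axis), both in log2 units, array labelled SREBP1 KD minus control, for small RNAs above the floor; red points lie in snoRNA hosts, blue in microRNA hosts, and open points in hosts on a shared probe set. SNORA24 and SNORD75 are higher with their hosts, the 4 SNORA71 points of SNHG17 spread across 0 at 1 host value, and MIR124-2 is at 0.49 with its host at 0.

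Protein-coding genes are the other large source of small RNAs. Only probe sets that name 1 gene were used for them, so coding hosts whose set also names their snoRNAs were left out. Of those above the floor, 381 span a snoRNA gene, and 190 were higher, 175 lower and 16 equal, with a median of 0. In this class 26 were at least 1.2-fold higher and 37 lower (16.5%). Over all protein-coding genes above the floor 12.5% were that far apart, 5.97% higher and 6.5% lower. ODC1, the first enzyme of polyamine synthesis and host of snoRNAs, read 8.66 and 9.35, 1.62-fold higher. ZMYM2, a zinc finger protein, read 5.62 and 4.69, 1.90-fold lower. ATP2B4, a plasma membrane calcium pump, read 7.11 and 6.38, 1.67-fold lower. ANKRD12 read 5.14 and 4.44, 1.62-fold lower.

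In the 166 of these genes that span a snoRNA with a SNORD, SNORA or SCARNA name, the median was 0.052, with 104 higher and 59 lower. At least 1.2-fold higher were 16 of them, and 14 were that much lower. ZMYM2 and ANKRD12 are not among the 166, since they span only snoRNA genes without such a name. The median of 0.21 for non-coding snoRNA hosts came from shared probe sets, a kind of set not used for the coding genes. Of 630 protein-coding genes spanning a microRNA gene, the median was 0, with 299 higher and 291 lower, and 23 were at least 1.2-fold higher and 59 lower (13.0%). MEST, an imprinted gene that hosts miR-335, read 5.17 and 6.12, 1.93-fold higher. NOL6, a nucleolar protein of ribosome assembly, read 6.41 and 7.03, 1.53-fold higher. SLC7A5, an amino acid transporter, read 8.49 and 9.09, 1.51-fold higher. TENM3, LYST and ASB2 were lower, by 1.80-fold, 1.77-fold and 1.60-fold.

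**Figure D4:**
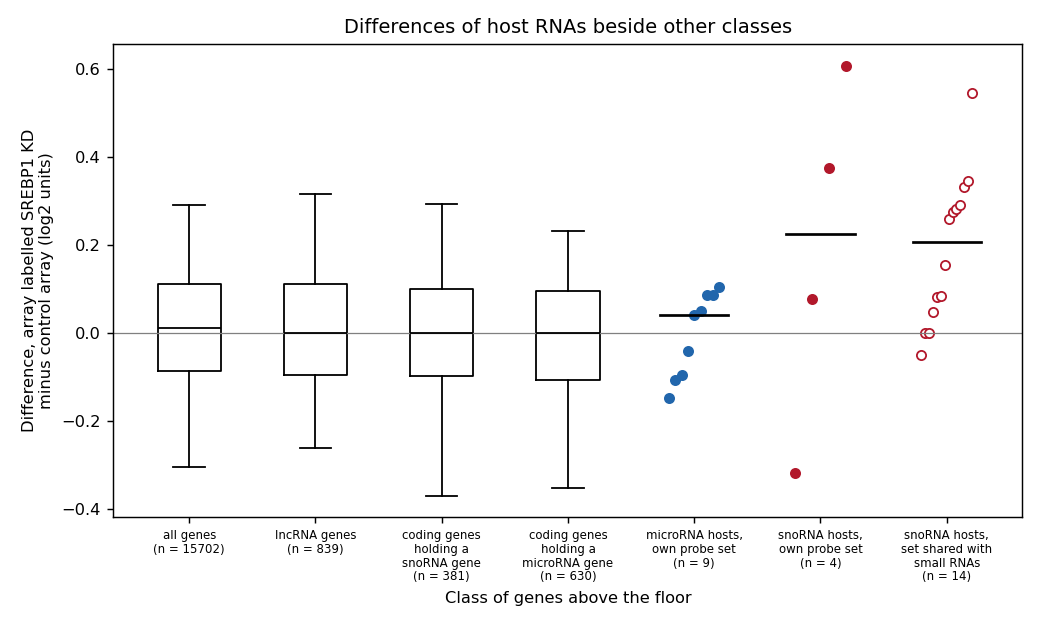
Differences in log2 units (y axis, array labelled SREBP1 KD minus control) by class of genes above the floor (x axis). Boxes show the 25th to 75th percentile with the median and whiskers from the 5th to the 95th percentile over genes; points are single host RNAs with a bar at their median. The snoRNA hosts have medians of 0.23 on their own sets and 0.21 on shared sets, while the microRNA hosts centre at 0.040 and the other classes at or near 0.

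The machinery that handles both kinds of small RNA was described from gene lists, with members beyond 1.2-fold named after their values were seen. Of 18 measured genes for proteins of snoRNPs and their assembly, 17 were higher and 1 was lower. Over all genes above the floor 52.2% were higher and 41.2% lower. The median of the list was 0.16 against 0.012 over all genes. Among the marker lists, medians of similar size were seen over the 8 markers of the line (0.16, 6 higher) and the 6 leukocyte markers above the floor (0.13, 4 higher). The other medians were -0.11 over luminal and 0.020 over fibroblast and endothelial markers. A median of this size was thus also seen outside the snoRNP list, though only in some marker lists. At least 1.2-fold apart were 2 higher and 1 lower of the 18 snoRNP genes, against 13.2% of all genes above the floor in either direction. NOLC1, a nucleolar chaperone of snoRNPs, read 7.64 and 8.26, 1.54-fold higher. TCOF1, the treacle protein of ribosomal RNA synthesis, read 6.80 and 7.18, 1.30-fold higher. ZNHIT3, a box C/D assembly factor, was the lower one, at 4.69 and 4.41.

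Nonsense-mediated decay, which degrades many spliced snoRNA hosts, had 14 measured genes, 11 higher and 3 lower, and the median was 0.13. The leukocyte marker median was also 0.13, while the luminal median was -0.11 and the fibroblast and endothelial median 0.020. SMG9, part of the SMG1 kinase complex, read 6.86 and 7.42, 1.47-fold higher. UPF1, the central helicase, read 6.87 and 7.27, and EIF4A3, of the exon junction complex, read 8.56 and 8.83.

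Of 13 measured genes of microRNA processing and action above the floor, 6 were higher, 6 lower and 1 equal, with a median of 0. XPO5, which exports microRNA precursors, read 7.93 and 8.37, 1.35-fold higher. TUT4 read 5.26 and 4.96 and TUT7 read 5.15 and 4.78, both uridylyl transferases of let-7 precursors and both lower. The mTORC1 pathway controls translation of RNAs with a 5′ pyrimidine tract. Its list pools activators, inhibitors and proteins that bind such RNAs, so its median is not a reading of pathway activity. That median was 0.11, with 11 of 19 higher and 8 lower. DDIT4, an inhibitor of mTORC1 induced by stress, read 7.09 and 6.27, 1.76-fold lower, and the kinase RPS6KB1 read 6.31 and 6.04.

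Other non-coding RNAs did not share a direction. A list of possible non-coding hosts under other names had 6 measured genes, DANCR, EPB41L4A-AS1, FTX, CYTOR, LINC-ROR and TUG1. Whether each holds a small RNA was not checked by position, and the list was not split by kind of small RNA. Of the 6, 2 were higher, 3 lower and 1 equal, with a median of -0.034. EPB41L4A-AS1, host of SNORA13, read 5.73 and 6.01, 1.21-fold higher, and DANCR, host of SNORA26, read 5.21 and 5.14. Of 11 long non-coding RNAs of another list above the floor, 3 are also among those 6 genes. Of the other 8, 4 were higher, 3 lower and 1 equal, with a median of 0.012. LINC00511 read 3.09, below the floor, and 3.39, and MALAT1, an abundant nuclear RNA, read 8.86 and 8.58.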

How the data were processed

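Each array's deposited log2 signals were computed by the authors; the submitters' processing notes name RMA and Affymetrix Expression Console, without versions or a build. As a method, RMA removes background, normalizes between arrays and summarises the probes of a set. Biotinylated cDNA came from total RNA, per the labels' protocols. The lower and upper quartiles were 2.33 and 5.01 (control) and 2.34 and 5.01 (SREBP1 KD), so nothing was rescaled. Precision is limited by the number of arrays, 1 per group, and no test was possible.

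Of 70523 probe sets, 23781 named 1 gene, 1543 several and 45199 none. Of several sets of a gene, the brightest on average was used. Symbols were updated through a RefSeq gene table (GRCh38.p14), which lists 117 hosts matching the rule, 63 of them not analysed here. Small RNAs were assigned to hosts by position in that table, without strand for snoRNAs. Every member is accounted for. Coding hosts were named when beyond 1.5-fold, up to 3 per direction. The members, lists, floor and thresholds were chosen with earlier results of these data known. The code was tested on simulated data. Alternatives changed centring, floor, probe sets, symbols, summary and threshold. Versions were matplotlib 3.10.9, statsmodels 0.14.6, pandas 2.3.3, numpy 2.4.6 and Python 3.11.15.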

Additional observations from a re-analysis of the deposited data

How the results depend on the processing

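The precision is that of 1 array per group, and 9 of the 22 hosts were below the floor. No paired analysis was possible because each group has 1 array. The 3 of 13 hosts beyond 1.2-fold became 1 at 1.5-fold and 0 at 2-fold. They became 9 of 40 hosts with probe sets of several genes added and 9 of 35 with small-RNA sets alone, more hosts being counted. They became 2 of 13 with values below the floor raised to it and 2 of 7 with a higher floor, SNHG21 being the host lost. With the floor 1 log2 unit higher the snoRNA host median moved from 0.23 to 0.37, the microRNA host median from 0.040 to 0.023 and their gap from 0.19 to 0.35, fewer genes being left. The microRNA host median was 0.020 with probe sets of several genes added, 0 with small-RNA sets alone added and, as a mean, -0.0024, the one reversal. Small RNAs inside the 22 hosts beyond 1.2-fold numbered 2, then 1 with the median of all genes subtracted, 1 with a loess curve (fraction 0.3) subtracted, 1 with the floor raised, 5 with no floor, and 0 at 1.5-fold and 2-fold. SNORA24 lay near the 1.2-fold threshold. Protein-coding genes spanning a snoRNA and beyond 1.2-fold numbered 63, then 30 with named snoRNAs only, 6 at 1.5-fold and 0 at 2-fold. Among single hosts, SNHG21 moved to -0.18 when values below the floor were raised to it, and MIR181A2HG to 0.031 after the loess curve. The small-RNA sets alone, values set to the floor, and all alternatives for small RNAs and for protein-coding genes were chosen after seeing the data. Of the alternatives for summary values, 45 kept direction and stayed within 1.5 times the reported value, while 18 moved further and 1 reversed. Of those for single hosts, 50 stayed within that range and 2 moved further.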
